A study of Rattus norvegicus with 8 samples.

Results

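The 10 genes described here encode the ligands, receptors and binding proteins of the growth hormone and insulin-like growth factor (IGF) system: Igf1, Igf2, Igf1r, Ghr, Igfbp1, Igfbp2, Igfbp3, Igfbp4, Igfbp5 and Igfbp6. They were chosen by name, and a probe was taken where its gene name or RefSeq accession in the array files stood for one of them. This gave 18 of the 41012 gene probes of the array, and all 10 genes were among the 24462 genes tested. RNA came from 8 rat kidney allografts, 2 per group, collected 24 h after transplantation and hybridised to 1-colour Agilent arrays. Donors were Dark Agouti rats (DA; RT1a). The recipients were Lewis rats (LEW; RT1l), which differ from them in the major histocompatibility complex, and both their own kidneys had been removed. All rats were male and of inbred strains. Each graft had been stored for 25 min at 4 °C.

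Donors of the high-difference group were lighter than their recipients by 20 to 50%, and those of the low-difference group by 0 to 20%. The anti-IL6R group was of the high-difference kind and its recipients received 500 µg of an antibody against the interleukin-6 receptor. The prednisolone group was of the same kind and its recipients received 15 mg/kg of this glucocorticoid. Both drugs were single intravenous injections given directly after surgery, and all rats weighed 120 to 250 g. Neither the age of the donors nor the weight of each single donor is given in the sources used here.

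Growth hormone acts through its receptor, encoded by Ghr, and JAK2 and STAT5 to raise transcription of Igf1, most of all in the liver but also in other tissues, the kidney among them. IGF-1 and IGF-2 signal through the receptor encoded by Igf1r. The IGF-binding proteins hold the ligands in blood and tissue, prolong their life and limit or direct their access to the receptor. In the kidney this system is known for its part in growth after loss of renal mass and in repair of injured tubules.

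The windows upstream of 4 of these genes are shown because Igf1 varied most like Igfbp3 and Igfbp6 over the arrays, while Igfbp1, the neighbour of Igfbp3, did not vary with them. Each holds the 250 bases before the gene's start, from the RefSeq promoter table of the GRCr8 assembly, written 5′ to 3′ on the gene's strand. Capitals mark matches, on either strand, to 4 short motifs: TATAAA (the TATA box), AGAACA (a half-site of the glucocorticoid receptor), TTCNNNGAA (the core bound by STAT factors) and CAAAACA (the core of the insulin response element). No motif matches overlapped in these windows.
Igf1 (chr7:24172282-24172531, + strand): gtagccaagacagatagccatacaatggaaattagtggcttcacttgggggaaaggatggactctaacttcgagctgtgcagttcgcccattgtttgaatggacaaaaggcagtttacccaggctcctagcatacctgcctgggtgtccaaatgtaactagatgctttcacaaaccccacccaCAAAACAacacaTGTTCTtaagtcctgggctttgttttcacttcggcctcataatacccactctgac
Igfbp3 (chr14:86277945-86278194, - strand): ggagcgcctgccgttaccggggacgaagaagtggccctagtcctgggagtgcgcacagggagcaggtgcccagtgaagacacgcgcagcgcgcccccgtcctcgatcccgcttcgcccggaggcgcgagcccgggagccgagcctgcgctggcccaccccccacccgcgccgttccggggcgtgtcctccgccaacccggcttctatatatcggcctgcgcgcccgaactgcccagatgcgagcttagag
Igfbp6 (chr7:135154669-135154918, + strand): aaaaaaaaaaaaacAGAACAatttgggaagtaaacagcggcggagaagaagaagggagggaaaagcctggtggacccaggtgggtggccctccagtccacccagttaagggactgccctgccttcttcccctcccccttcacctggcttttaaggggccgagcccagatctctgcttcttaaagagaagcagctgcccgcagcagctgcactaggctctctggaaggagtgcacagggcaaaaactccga
Igfbp1 (chr14:86261027-86261276, + strand): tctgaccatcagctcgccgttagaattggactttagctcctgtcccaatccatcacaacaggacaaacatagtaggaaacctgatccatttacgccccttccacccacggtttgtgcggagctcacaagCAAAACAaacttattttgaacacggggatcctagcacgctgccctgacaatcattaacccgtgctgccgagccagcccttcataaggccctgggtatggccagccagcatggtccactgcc

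CAAAACA began at position -67 of Igf1 and -121 of Igfbp1, counted from the start site, and 5.46% of all 33469 promoter windows of this length hold it. Of the 11 windows listed for the 10 genes (Igf2 has 2), these were the only ones with a match to it. AGAACA lay on the opposite strand at -55 of Igf1 and -93 of Ghr and on the same strand at -236 of Igfbp6, against 17.5% of all windows. TATAAA was found at -40 of Igfbp4 alone, against 12.9%, and TTCNNNGAA in 0 of the 11 windows, against 7.67%. The Igfbp3 window held none of the 4 motifs. These are matches of letters only.

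All 10 genes were well above background on all 8 arrays by the probe with the highest mean signal, which represents each gene below. Levels are log2 signals relative to the 75th percentile of the same array, so a level of 0 equals that percentile and 1 unit is a 2-fold step. Levels of different genes come from different probes and cannot be set against each other. Per array, 64.5% to 74.1% of the gene spots stood well above background. The kidney label was borne out by 8 of 8 tubule markers, among them Umod and Aqp2, and by the podocyte gene Nphs1, which were well above background on all 8 arrays. Of 7 liver genes, Ttr was so on 0 arrays, Cps1 on 1, Apoa1 on 3, Serpina1 on 6, Alb and Apob on 7 and Tf on all 8, the last at levels of 2.38 to 3.98. Of 4 adrenal genes, Cyp11a1 was so on 0 arrays, Cyp11b1 and Cyp11b2 on 1 each and Star on all 8, at levels of -3.95 to -3.67. Both untreated groups lay on 1 slide and both treated groups on another, so treatment and slide cannot be told apart in a comparison of treated with untreated grafts. The labels call the 2 arrays of a group biological replicates, and their number limits the precision of every value.

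The high-difference grafts had the lowest mean of the 4 groups for Igf1, Igf2, Igfbp2, Igfbp3, Igfbp4, Igfbp5 and Igfbp6. Against the low-difference grafts, Igfbp3 was 6.35-fold lower, Igfbp6 3.46-fold, Igf1 3.03-fold, Igfbp5 2.82-fold and Igfbp2 2.42-fold. These sizes carry no firm order, since the log2 difference of Igfbp6 went from -1.79 to -1.15 with normexp background correction and to -0.76 without the second high-difference array. By their representing probes Ghr and the receptor gene Igf1r stood within 1.27-fold of their low-difference level, and Igfbp1 was 1.56-fold higher. The other 2 Ghr probes gave larger log2 differences, of -0.72 and -0.78. None of the 10 genes passed in any of the 4 comparisons made (limma, Benjamini-Hochberg adjusted p from 0.19 upward), and 0% of the 24462 genes tested did so in each. The unadjusted p was under 0.05 for 5 of the 10 genes in high minus low (14.7% of all genes), 5 in anti-IL6R minus high (17.7%), 4 in prednisolone minus high (11.8%) and 0 in anti-IL6R minus prednisolone (3.4%).

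**Figure D1:**
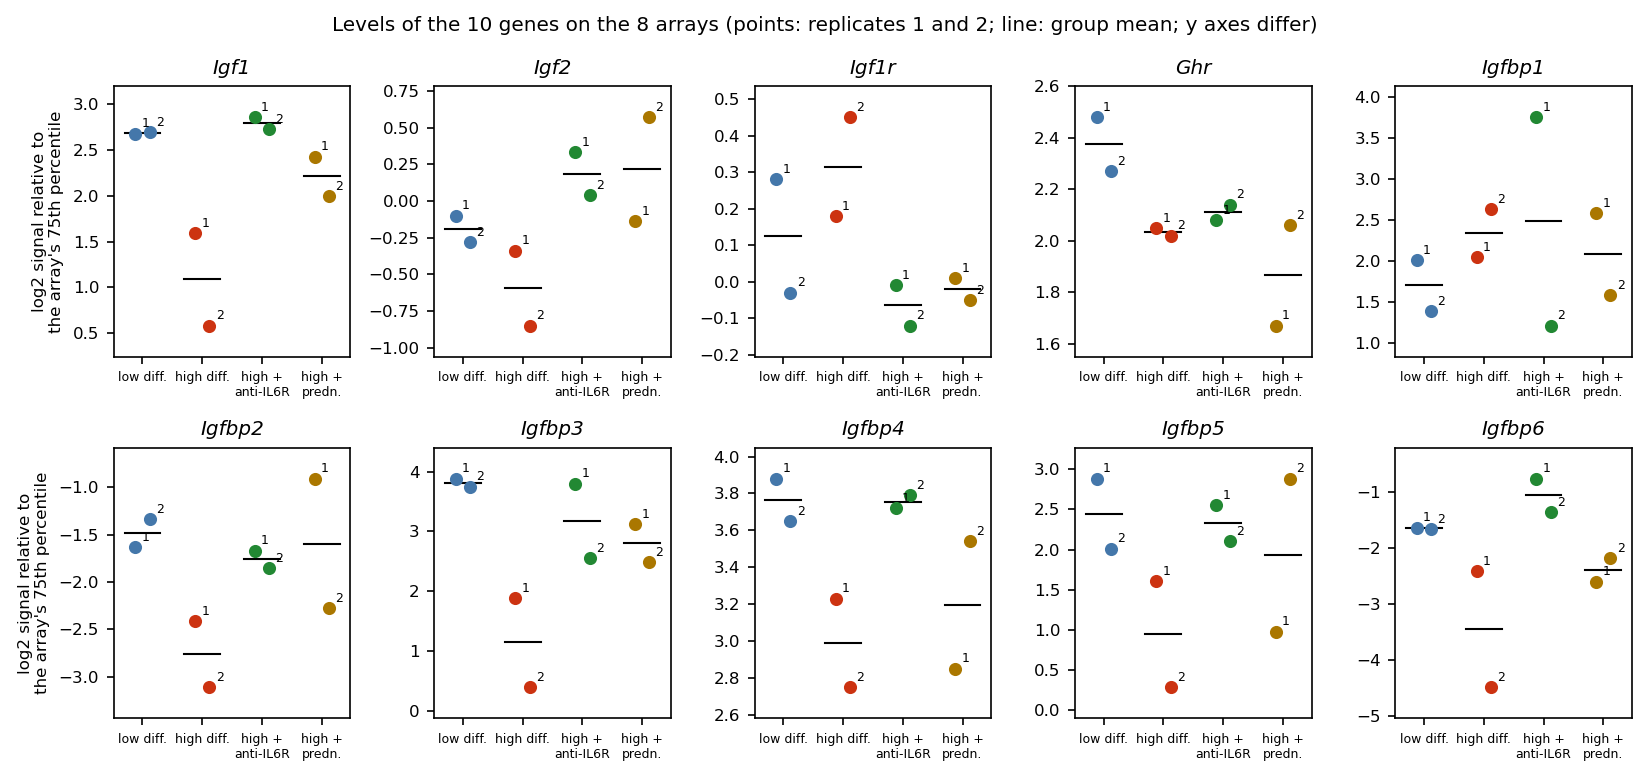
Level of each gene on each array, as log2 signal relative to the array's 75th percentile (y axis, own scale per panel), by group (x axis). Points are the 2 arrays of a group with their replicate number, and lines are group means; for Igf1 and Igfbp3 both high-difference arrays sit below the other 6.

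Of the ligands, Igf1 encodes IGF-1, the main mediator of growth hormone. It read 1.59 and 0.58 on the log2 scale in high-difference, 2.68 and 2.70 in low-difference, 2.86 and 2.73 in anti-IL6R and 2.43 and 2 in prednisolone grafts. By the probe that represents Igf1 the groups did not overlap, in the order anti-IL6R, low difference, prednisolone and high difference. The first 2 of these, with means of 2.8 ± 0.09 and 2.69 ± 0.01 (SD, n = 2), lie on different slides and were not tested against each other. The difference of high minus low was -1.60 ± 0.35 (SE, limma adjusted p = 0.30; 95% interval -2.44 to -0.76). Anti-IL6R minus high was 1.71 ± 0.35 (adjusted p = 0.19) and prednisolone minus high 1.13 ± 0.35 (adjusted p = 0.36).

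Igf1 had 3 further probes. One, which the files describe as matching a complete IGF-I coding sequence, was well above background on all 8 arrays. It gave -1.96 ± 0.40 (SE) for high minus low, 2.19 ± 0.40 for anti-IL6R minus high and 1.84 ± 0.40 for prednisolone minus high. By it the prednisolone grafts, at -1.42 and -1.95, overlapped the low-difference grafts, at -1.65 and -1.46. The other 2 were not well above background on either high-difference array, so they give bounds. Each was well above background on only 1 of the 2 prednisolone arrays, so no bound is given for that group. By the single-spot one, Igf1 exceeded its high-difference level at least 1.38-fold in low-difference and 1.90-fold in anti-IL6R grafts. By the one spotted 10 times it was at least 1.36-fold higher in anti-IL6R grafts. That probe gave no bound for high minus low, its levels being -5.95 and -5.96 in high-difference and -5.81 and -5.89 in low-difference grafts, close to background.

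Igf2 encodes IGF-2, a ligand that is high in the fetus and low in most adult rat tissues. Its log2 level was -0.34 and -0.85 in high-difference, -0.10 and -0.28 in low-difference, 0.33 and 0.04 in anti-IL6R and -0.14 and 0.57 in prednisolone grafts. The high-difference arrays lay below all 6 others, and the 2 treated groups overlapped. The difference was -0.41 ± 0.31 (SE, limma adjusted p = 0.52) for high minus low, 0.78 ± 0.31 (adjusted p = 0.27) for anti-IL6R minus high and 0.81 ± 0.31 (adjusted p = 0.40) for prednisolone minus high.

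Of the receptor genes, Igf1r, which encodes the receptor tyrosine kinase for both ligands, read 0.18 and 0.45 in high-difference, 0.28 and -0.03 in low-difference, -0.01 and -0.12 in anti-IL6R and 0.01 and -0.05 in prednisolone grafts. These 8 levels spanned 0.57 log2 units, against 3.71 for Igfbp6. The difference of high minus low was 0.19 ± 0.20 (SE, limma adjusted p = 0.64; 95% interval -0.29 to 0.67). Neither treated group overlapped the high-difference grafts, at -0.37 ± 0.20 for anti-IL6R minus high (adjusted p = 0.36) and -0.34 ± 0.20 for prednisolone minus high (adjusted p = 0.52). The sign of the Igf1r difference was opposite to that of Igf1 in these 3 comparisons, which share the high-difference arrays.

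Ghr, the growth hormone receptor gene, read 2.05 and 2.02 in high-difference, 2.48 and 2.27 in low-difference, 2.08 and 2.14 in anti-IL6R and 1.67 and 2.06 in prednisolone grafts. By this probe the low-difference grafts were highest and overlapped no other group, while the high-difference and prednisolone grafts overlapped. By the other 2 Ghr probes the second prednisolone array lay within the low-difference range, at -1.37 against -0.94 and -1.55 and at -2.23 against -1.89 and -2.33. For high minus low the difference was -0.35 ± 0.20 (SE, limma adjusted p = 0.43; 95% interval -0.84 to 0.14), and those 2 probes gave -0.72 ± 0.38 and -0.78 ± 0.46. Anti-IL6R minus high was 0.07 ± 0.20, with 0.20 ± 0.38 and 0.11 ± 0.46 by the other probes. The low-difference mean of Ghr was 2.38 ± 0.15 and the anti-IL6R mean 2.11 ± 0.04 (SD, n = 2).

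Igfbp3 encodes the main IGF carrier of the blood, and Igfbp1 encodes a binding protein that insulin represses and fasting and stress raise. The 2 genes are neighbours, with 0 protein-coding genes between them in the GRCr8 gene table, but their patterns differed, with a Pearson correlation over the 8 arrays of 0.03. Igfbp3 read 1.89 and 0.40 in high-difference, 3.88 and 3.75 in low-difference, 3.8 and 2.55 in anti-IL6R and 3.12 and 2.49 in prednisolone grafts. The high-difference arrays lay below all others, and the anti-IL6R grafts overlapped both the low-difference and the prednisolone grafts. Igfbp3 differed by -2.67 ± 0.60 (SE, limma adjusted p = 0.30; 95% interval -4.11 to -1.23) in high minus low, by 2.03 ± 0.60 (adjusted p = 0.22) in anti-IL6R minus high and by 1.65 ± 0.60 (adjusted p = 0.39) in prednisolone minus high. Without the second high-difference array the last 2 were 1.28 and 0.91. A second Igfbp3 probe, spotted 10 times, gave -2.33 ± 0.59, 1.76 ± 0.59 and 1.43 ± 0.59.

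Igfbp1 read 2.04 and 2.63 in high-difference, 2.01 and 1.39 in low-difference, 3.75 and 1.21 in anti-IL6R and 2.58 and 1.58 in prednisolone grafts. The anti-IL6R pair held both the highest and the lowest level of the 8, a gap of 2.54 log2 units within 1 group. The high minus low difference was 0.64 ± 0.82 (SE, limma adjusted p = 0.70; 95% interval -1.34 to 2.61), so a change of several fold either way lies within the interval. Anti-IL6R minus high was 0.14 ± 0.82, which turned to -1.13 without the first anti-IL6R array and to 1.41 without the second.

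Igfbp2 and Igfbp5 form the other neighbouring pair, again with 0 protein-coding genes between them. Their products bind IGFs in tissue fluid and, in the case of IGFBP-5, in the extracellular matrix. Igfbp2 read -2.41 and -3.11 in high-difference, -1.63 and -1.34 in low-difference, -1.67 and -1.85 in anti-IL6R and -0.91 and -2.28 in prednisolone grafts. The high-difference arrays were again the lowest. In Igfbp2, high minus low was -1.28 ± 0.47 (SE, limma adjusted p = 0.32), anti-IL6R minus high 1 ± 0.47 (adjusted p = 0.32) and prednisolone minus high 1.17 ± 0.47 (adjusted p = 0.42).

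Igfbp5 read 1.61 and 0.29 in high-difference, 2.88 and 2.01 in low-difference, 2.55 and 2.10 in anti-IL6R and 0.98 and 2.88 in prednisolone grafts. The first prednisolone array lay among the high-difference arrays and the second was level with the highest low-difference array. The high minus low difference was -1.49 ± 0.72 (SE, limma adjusted p = 0.37), and a second probe gave -1.50 ± 0.83. Prednisolone minus high was 0.98 ± 0.72 and rested on 1 array: it was 1.93 without the first prednisolone array and 0.03 without the second. The prednisolone pair was also split for Igfbp2, but the other way round: its second array minus its first was -1.37 there and 1.91 for Igfbp5. The Pearson correlation of the 2 neighbours over the 8 arrays was 0.29.

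Igfbp4 encodes a binding protein that mostly inhibits IGF action, and Igfbp6 one that prefers IGF-2. Igfbp4 read 3.23 and 2.75 in high-difference, 3.88 and 3.65 in low-difference, 3.72 and 3.79 in anti-IL6R and 2.85 and 3.54 in prednisolone grafts. For Igfbp4, high minus low was -0.77 ± 0.29 (SE, limma adjusted p = 0.32) and anti-IL6R minus high 0.77 ± 0.29 (adjusted p = 0.26), and a second, dimmer probe gave -0.82 ± 0.21 and 0.94 ± 0.21. The prednisolone grafts overlapped the high-difference grafts, with a difference of 0.20 ± 0.29. That difference was -0.04 without the second high-difference array and -0.14 without the second prednisolone array.

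Igfbp6 read -2.42 and -4.48 in high-difference, -1.64 and -1.67 in low-difference, -0.77 and -1.36 in anti-IL6R and -2.60 and -2.19 in prednisolone grafts. Its anti-IL6R arrays were the 2 highest of all 8, and its prednisolone arrays lay on either side of the first high-difference array. For Igfbp6, high minus low was -1.79 ± 0.63 (SE, limma adjusted p = 0.32), anti-IL6R minus high 2.38 ± 0.63 (adjusted p = 0.21) and anti-IL6R minus prednisolone 1.33 ± 0.63 (adjusted p = 1). With normexp background correction the values were -1.15 for high minus low, 1.67 for anti-IL6R minus high and 0.52 for prednisolone minus high, the last of which was otherwise 1.05. Without the second high-difference array they were -0.76, 1.35 and 0.02, and anti-IL6R minus high was 3.42 without the first.

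**Figure D2:**
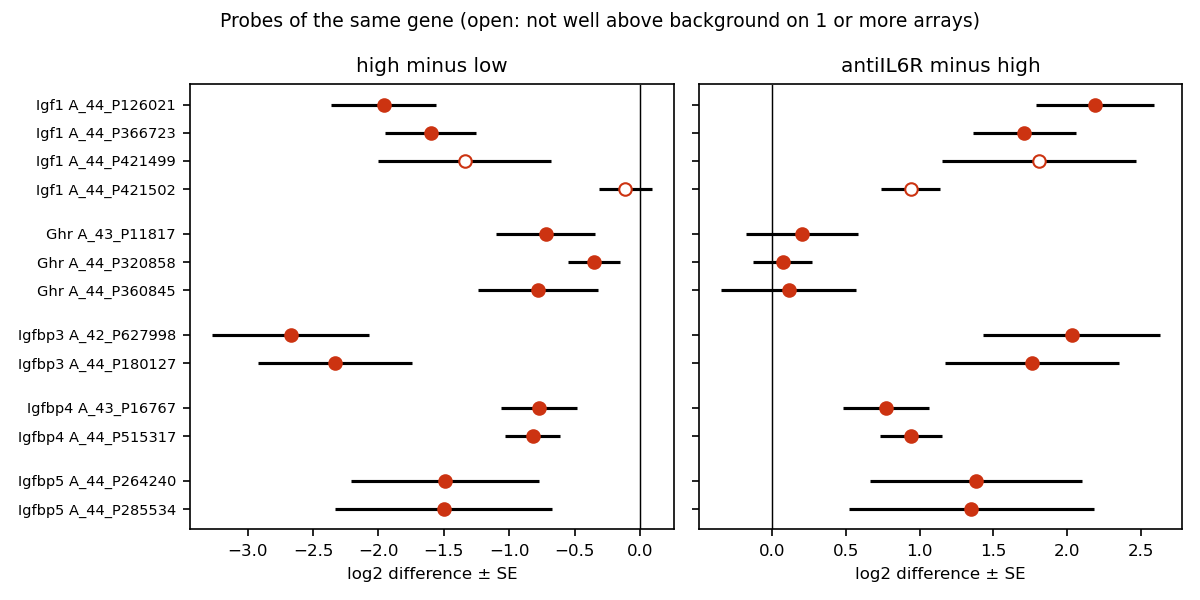
Log2 difference with its SE (x axis) for each probe (y axis) of the 5 genes that have more than 1, in high minus low (left) and anti-IL6R minus high (right). Open points are probes not well above background on 1 or more arrays. Probes of Igfbp3, Igfbp4, Igfbp5 and Ghr share their sign in both panels; for the 2 dim Igf1 probes the plotted difference is no measured size, since neither was well above background in high-difference grafts.

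As a set, 2 of the 10 genes had a higher mean in high-difference than in low-difference grafts, where 56% of all genes did (66.4% with normexp background correction). The groups did not overlap for 9 genes, against 56.5% of all genes. Of these, 8 were lower (23% of all genes) and Igfbp1 was higher (33.5% of all genes). The 5 genes with an unadjusted limma p under 0.05 (14.7% of all genes) were Igf1, Igfbp2, Igfbp3, Igfbp4 and Igfbp6, all lower, against 6.43% of all genes in that direction. The median difference of the 10 was -1.03, against 0.07 over all genes tested. These counts describe genes that were picked with earlier results of the same arrays known.

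In anti-IL6R minus high, 9 of the 10 had a difference above 0, against 43.2% of all genes (28.3% with normexp). Again 9 did not overlap (59.8% of all genes), 8 of them higher (23.5%) and Igf1r lower (36.3%). The unadjusted limma p was under 0.05 for Igf1, Igf2, Igfbp3, Igfbp4 and Igfbp6 (17.7% of all genes), all higher (7.09%), and for 0 genes that were lower (10.6%). The median difference was 0.89, against -0.09 over all genes.

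In prednisolone minus high, 7 had a difference above 0 (42.4% of all genes) and 5 did not overlap (38.9%). Igf1, Igf2, Igfbp2 and Igfbp3 were the 4 higher ones (13.9%) and Igf1r the lower one (25%). The same 4 had an unadjusted limma p under 0.05 (11.8% of all genes; 4.25% higher and 7.58% lower). The median was 0.90, against -0.08 over all genes. The comparisons of high minus low, anti-IL6R minus high and prednisolone minus high share the 2 high-difference arrays, so a low level there enters each of them.

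**Figure D3:**
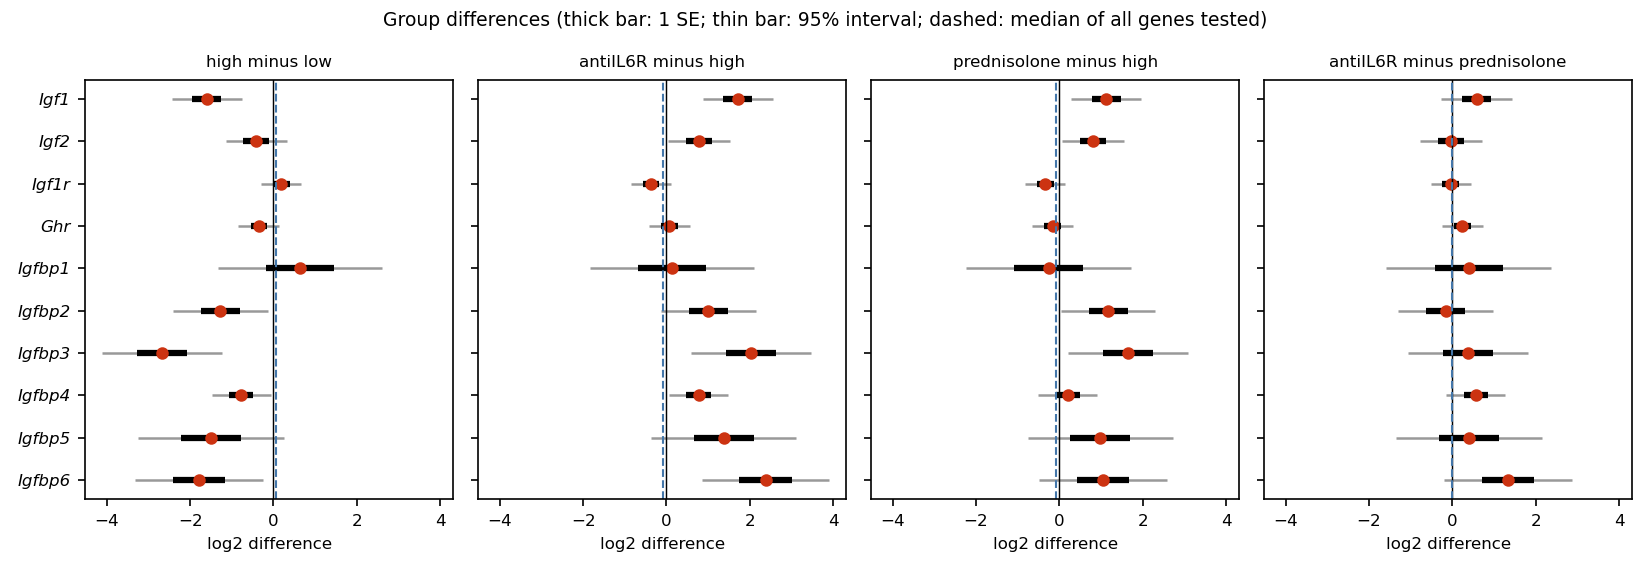
Log2 differences of the 10 genes (x axis; genes on the y axis) in the 4 comparisons. Points are limma estimates, thick bars 1 SE, thin bars 95% intervals and dashed lines the median of all genes tested; in high minus low the points run from -2.67 for Igfbp3 to 0.64 for Igfbp1, whose interval is the widest of the 10.

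The 2 treatments lay on the same slide and could be compared directly. In anti-IL6R minus prednisolone, 7 of the 10 genes had a difference above 0, against 48.1% of all genes (33.3% with normexp). By the representing probes, Igf1, Ghr, Igfbp4 and Igfbp6 were the 4 without overlap (26.2% of all genes), all higher (11.9%), and 0 were lower (14.3%). By the other 2 Ghr probes the anti-IL6R arrays lay between the 2 prednisolone arrays. Their levels were -1.75 and -1.77 against -2.42 and -1.37, and -2.77 and -2.80 against -3.70 and -2.23. The groups also overlapped by the dim single-spot Igf1 probe, and did not by the other probes of Igf1 and Igfbp4. The unadjusted limma p of the representing probes was under 0.05 for 0 of the 10, against 3.4% of all genes (2.58% higher and 0.822% lower). Their differences were 0.58 ± 0.35 (SE) for Igf1, 0.24 ± 0.20 for Ghr and 0.56 ± 0.29 for Igfbp4, each with an adjusted p of 1. The second Igfbp4 probe gave 0.64 ± 0.21, with an unadjusted limma p of 0.02, and was not called after adjustment. The intervals do not show that the treatments act alike: that of Igfbp6 ran from -0.20 to 2.86 and that of Igfbp3 from -1.07 to 1.81.

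**Figure D4:**
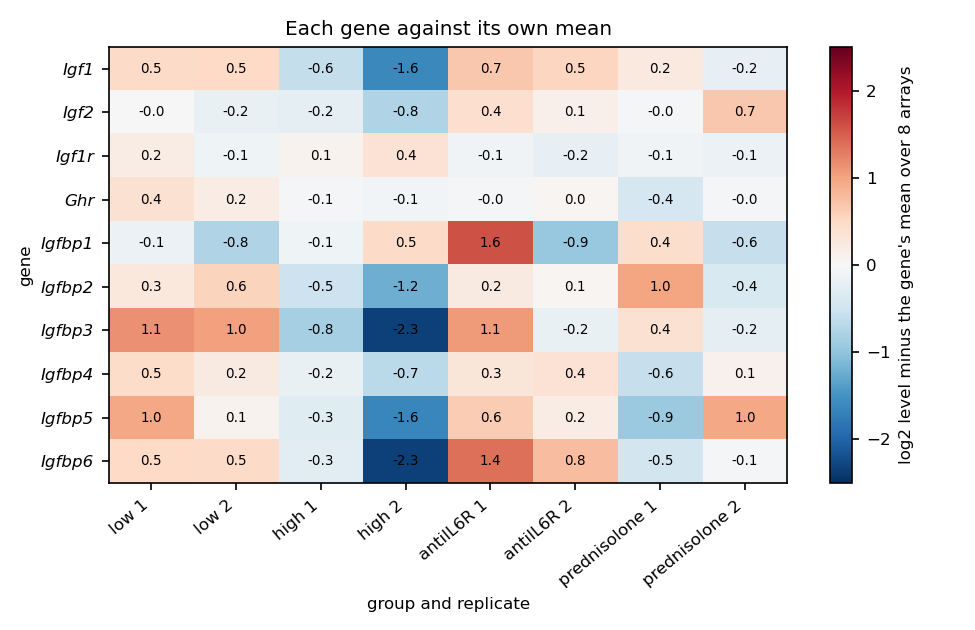
Log2 level of each gene (y axis) on each array (x axis, group and replicate) minus the gene's own mean over the 8 arrays (colour and number). The second high-difference array holds the lowest level of 7 of the 10 genes.

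The second high-difference array was the lowest of the 8 for 7 genes, with a median deviation of -0.98 from the genes' own means, and the first had -0.26. The median gap between the high-difference replicates was 0.64 for the 10 genes and 0.28 for all genes tested, and between the prednisolone replicates 0.66 and 0.43. The low-difference and anti-IL6R replicates differed by a median of 0.22 and 0.23. Without the second high-difference array, high minus low was -1.09 for Igf1, -1.92 for Igfbp3, -0.93 for Igfbp2, -0.83 for Igfbp5 and -0.53 for Igfbp4. Anti-IL6R minus high was then 1.2 for Igf1, 0.65 for Igfbp2 and 0.72 for Igfbp5, and prednisolone minus high 0.62, 0.82 and 0.32. All 40 differences (10 genes, 4 comparisons) stayed uncalled under the 17 or 18 alternatives run for each, and 30 of them kept their sign throughout.

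As the RNA is from whole tissue, fewer cells of a type and less RNA per cell cannot be told apart. The summed linear signal of 8 of 9 fibroblast and mural cell markers (Acta2 was not tested) was 58.5 to 132 times the 75th percentile in high-difference, 111 to 191 in low-difference, 211 to 226 in anti-IL6R and 107 to 116 in prednisolone grafts. All 8 of these markers, such as Dcn and Col3a1, had a higher mean in anti-IL6R than in high-difference grafts. That of 9 of 10 monocyte and macrophage markers (Cd163 was not tested) was 11 to 14.6, 26 to 42.4, 35.7 to 52.3 and 19.2 to 79.2 in the same order, and that of 8 of 8 T cell markers 0.353 to 0.396, 1.2 to 1.28, 1.22 to 1.41 and 0.453 to 1.25. For 7 of 7 endothelial markers it was 43.4 to 57.2, 65.1 to 74.3, 67.2 to 79.2 and 65.9 to 78.1, and for 8 of 8 kidney tubule markers 412 to 687, 779 to 1130, 642 to 828 and 388 to 894. Of the T cell markers, only Cd3d was well above background on all 8 arrays, with Cd3g so on 7 and Cd3e on 2. The 7 of 8 tubular injury markers tested, Havcr1 left out, summed to 834 to 1360, 594 to 827, 523 to 672 and 253 to 654. Of these 7, 6 had a higher mean in high-difference than in low-difference grafts, and Vcam1 a lower one, at 2.72 and 1.56 against 3.66 and 4.36. In all these sums bright markers, such as Umod, Kdr, Clu and Spp1, weigh most. Against low-difference grafts, the high-difference mean was lower for 8 of 8 fibroblast and mural and 8 of 9 monocyte and macrophage markers. The same held for 8 of 8 T cell, 6 of 7 endothelial and 7 of 8 kidney tubule markers. In anti-IL6R against high-difference grafts, the mean was also higher for 9 of 9 monocyte and macrophage and 8 of 8 T cell markers. It was higher there for 6 of 7 endothelial, 7 of 8 kidney tubule, 3 of 5 podocyte and 1 of 7 tubular injury markers. The part of these cell types and of injury in the levels of the 10 genes was not tested.

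Within the set, Igf1 was most like Igfbp3 and Igfbp6 over the 8 arrays, with Pearson correlations of 0.94 and 0.93, and Igfbp4 most like Igfbp5, at 0.90. Igf1r correlated with Igf1 at -0.72 and with Igf2 at -0.73. These are descriptions over 8 arrays that share the group differences. The search for like genes covered all 11756 tested genes with a symbol. Since the highest values of so many were picked, a high r over 8 arrays is no evidence of shared regulation. Among these genes, the 3 most like Igf1 were Trpm2 (r = 0.987), Aldh1l2 (0.985) and Mtus1 (0.983). Those most like Igfbp6 were Ogn (0.981), a small leucine-rich matrix protein gene, G6pc1 (0.981), the glucose-6-phosphatase gene, and Vegfd (0.98), a lymphatic growth factor gene. Igfbp3 was most like Rasal3 (0.973), the fatty acid receptor gene Cd36 (0.963) and Cxxc4 (0.963), and Igfbp5 most like Spo11 (0.995), Gfra3 (0.993) and the small heat shock protein gene Hspb6 (0.992). The highest correlation with Igfbp1 was that of the progesterone receptor gene Pgr, at 0.95.

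Of 52 other genes of the pathway, 45 were tested and 0 passed in any comparison. Their median difference was 0.06 in high minus low, 0 in anti-IL6R minus high and -0.07 in prednisolone minus high, near the medians of 0.07, -0.09 and -0.08 over all genes. In high minus low the unadjusted limma p was under 0.05 for 5 of them (14.7% of all genes), all higher (8.24%). In anti-IL6R minus high that held for 2 higher ones (7.09% of all genes) and 2 lower ones (10.6%). In prednisolone minus high it held for 0 higher ones (4.25%) and 2 lower ones (7.58%). The genes given with a difference are among the 6 with the smallest p in that comparison. Igf2bp2, which encodes a protein that binds Igf2 mRNA, read 1.71 and 2.57 in high-difference and 0.93 and 0.85 in low-difference grafts. Its high minus low value was 1.25 ± 0.36 (SE, limma adjusted p = 0.31). Eif4ebp1, a translation inhibitor that mTOR inactivates, differed by 1.25 ± 0.50 (adjusted p = 0.33), Pik3r1, the regulatory subunit of PI3-kinase, by 1.08 ± 0.44 (adjusted p = 0.34), Foxo4 by 0.51 ± 0.18 and the S6 kinase gene Rps6kb1 by 0.48 ± 0.19.

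Igfals encodes the acid-labile subunit, which joins IGF and IGFBP-3 in the large complex of the blood. It read -1.78 and -3.41 in high-difference, -1.37 and -1.37 in low-difference, -1.43 and -0.91 in anti-IL6R and -1.16 and -2.11 in prednisolone grafts. High minus low was -1.23 ± 0.57 (SE, limma adjusted p = 0.36) and anti-IL6R minus high 1.43 ± 0.57 (adjusted p = 0.27), the same signs as for Igf1 and Igfbp3. In anti-IL6R minus high, Pik3r1 was at -1.35 ± 0.44 (adjusted p = 0.23), Igf2bp2 at -0.89 ± 0.36 and Socs1, a feedback inhibitor of JAK signalling, at 0.60 ± 0.25. In prednisolone minus high, the adaptor gene Grb2 was at -0.63 ± 0.18 (adjusted p = 0.35) and Pik3r1 at -1.45 ± 0.44. The Socs genes went both ways there, with Socs3 at -1.40 ± 0.61 and Socs1 at 0.49 ± 0.25. Socs2, the feedback inhibitor gene of growth hormone signalling, was at 0.48 ± 0.22.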

How the data were processed

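Each array file holds, per spot, a processed signal intensity and the raw mean and local background intensity, deposited by the authors. These came from Agilent Feature Extraction 9.5.1.1 with spatial and multiplicative detrending switched on, per the file headers. For single-spot probes, the authors' deposited value table equals these intensities times 1 factor per array, except for 1338 zeros at spots flagged as outliers. Probes with several spots were not compared in this way.

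Control and outlier spots were left out, spots of a probe averaged on the log2 scale and each array's 75th percentile subtracted. A probe counted as well above background on an array where at least 50% of its spots were, and was tested where this held on both arrays of at least 1 group. Of 41012 probes, 765 lacked an unflagged spot on some array, 11561 were too dim and 28686 were tested, standing for 24462 genes by the probe with the highest mean. Names came from the files and the RefSeq gene table of GRCr8 (10735 probes by accession, 5577 by symbol, 3730 by synonym). Probe coordinates were not used here. All 8 arrays entered a single limma 3.58.1 fit in R 4.3.3 (4 residual and 2.37 prior degrees of freedom), with Benjamini-Hochberg adjustment over all genes and a threshold of 0.05. With 2 arrays a group, the smallest p of a two-sided exact permutation test is 0.33, and no such test was run. For a probe not well above background in a group, a fold is a bound against the higher of its own level and the lowest level well above background on each array. The fit was tested on simulated data with the means and within-group spread of these arrays. Of genes given a log2 change of 1, it called 0% to 7.46%, depending on the comparison. For a change of 2 this was 50.7% to 61.2%, and for a change of 4 it was 80.3% to 87.9%.

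The genes, the lists and the marker genes were chosen with earlier results of these data known. The rule named all 10 genes, up to 6 pathway genes per comparison with the smallest p, and the 3 genes most correlated with each. Alternatives covered background correction, scaling, the value table, probe filters, probe choice, variance trend, slide, a replicate block and leaving out each array.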

Additional observations from a re-analysis of the deposited data

How the results depend on the processing

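Each difference of the 10 genes was refitted under 17 or 18 alternatives, the fit within the slide being possible only for high minus low and for the 2 treatments, and 0 were called. Testing each probe on its own also called 0 of the 10 genes in each comparison. Over the refits, 682 values of single differences kept their sign and 18 turned. Those that turned were Igf2 in anti-IL6R minus prednisolone (0.02 with normexp, 0.01 with the 75th percentile over detected probes, and -0.38 to 0.32 with 1 array left out) and Igf1r there (0.00 with that percentile, -0.09 to 0.02 with 1 array left out). With 1 array left out, the other turning differences ranged from -1.13 to 1.41 (Igfbp1), -0.76 to 0.25 (Igfbp1), -0.36 to 0.03 (Ghr) and -0.14 to 0.55 (Igfbp4) in the comparisons with high-difference grafts. In anti-IL6R minus prednisolone they ranged from -0.87 to 1.67 (Igfbp1), -0.85 to 0.52 (Igfbp2), -0.25 to 1 (Igfbp3) and -0.55 to 1.35 (Igfbp5). Over all genes, quantile normalization called 3 in high minus low, 7 in anti-IL6R minus high, 4 in prednisolone minus high and 2 in anti-IL6R minus prednisolone. Leaving out 1 array called 0 to 39, 0 to 169, 0 to 224 and 0 to 130 in the same order. The highest counts came without the first high-difference array (39), without either prednisolone array (169) and without the first prednisolone array (224 and 130). In these fits the lone array of a group is assumed to vary like the other groups. The cause was not tested. Arrays with the same replicate number share only that number (correlations of their deviations of -0.35 to 0.37 between groups), and a fit with the replicate block called 0 genes in each comparison, as did the fit within the slide for high minus low and for the treatments. The all-gene median of high minus low was 0.14 with normexp and 0.18 with no filter on dim probes, against 0.07.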

Other observations

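Beyond the 18 probes, the array has a probe for a rat IGF-I exon 6 record that the files name by its accession and not by the gene symbol. It was looked up after the values of Igf1 were seen. It was well above background on all 8 arrays, with log2 levels of -2.82 and -3.92 in high-difference, -1.62 and -1.45 in low-difference, -1.44 and -1.35 in anti-IL6R and -2.67 and -1.89 in prednisolone grafts. High minus low was -1.83 ± 0.42 (SE, limma adjusted p = 0.30) and anti-IL6R minus high 1.97 ± 0.42 (adjusted p = 0.20). A probe described as similar to IGFBP-4 was well above background on 0 arrays.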
